A study of Mus musculus with 6 samples.

Results

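The lymphoid transcription factors described here are 9 genes chosen by name from the 13935 genes of the deposited table: Ikzf1, Ikzf2, Ikzf3, Satb1, Tcf7, Notch1, Gata3, Bcl11a and Tcf3. The choice was made with earlier results of these data known. All 9 were listed and all 9 passed the filter on low counts, so each was tested. RNA was measured in libraries of cells sorted from mouse bone marrow, which the sample labels call hematopoietic stem and progenitor cells and the series title long-term hematopoietic stem cells, a rare population able to rebuild all blood lineages. The 3 libraries labelled Mel18 knockout (replicates 4 to 6) came from mice with a conditional deletion of Mel18 in the blood system, and the 3 labelled wild type (replicates 1 to 3) served as the comparison. Mel18 is the protein of Pcgf2, a subunit of polycomb repressive complex 1, which keeps genes silent through chromatin. The header of the authors' comparison names Cre+ and Cre- cells, so where Cre+ stands for knockout, effects of the recombinase Cre and of the deletion cannot be told apart. The Cre driver, the deleted exons, the sort gate, pooling, and the strain, age and sex of the mice are not stated in the labels used here.

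These factors set up the lymphoid programme. The Ikaros family (Ikzf1, Ikzf2 and Ikzf3, coding for Ikaros, Helios and Aiolos) are zinc finger proteins that recruit chromatin remodellers, and Ikaros already acts in multipotent progenitors while Aiolos is typical of later B and T cells. Notch1 is the receptor that starts the T-cell programme in the thymus, and Tcf7 (the protein TCF1) and Gata3 act below it. Tcf3 codes for the E proteins E12 and E47, Bcl11a is needed for early B-cell development, and Satb1 folds chromatin in thymocytes and lymphoid-primed progenitors. Some of these genes, Gata3 and Satb1 among them, also have known roles in the stem cells themselves.

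Total counts were 37180701, 36825275 and 33537679 in knockout replicates 4 to 6 and 30087057, 26469336 and 30950057 in wild-type replicates 1 to 3, so that 3 counts correspond to between 0.0782 and 0.115 CPM, the count of a gene scaled to libraries of equal effective size with TMM factors. Pcgf2 itself did not separate the groups, with 72, 72 and 107 counts in the libraries labelled knockout and 43, 68 and 54 counts in wild type (QL adjusted p = 0.952). A whole-gene count cannot tell whether the deleted exons were transcribed. All directions below are therefore between libraries by their labels. Knockout replicate 6 stood apart: its score on principal component 1 (39% of the variance in log2 CPM) was -167, whereas knockout replicates 4 and 5 scored -7.75 and 3.16, and the wild-type libraries between 41.9 and 71.6. On principal component 2 (25.2% of the variance) knockout replicate 6 scored -48.5, within the wild-type range of -63.6 to -29.4. Knockout replicates 4 and 5 scored 103 and 75 there. The library number of knockout replicate 6 in the labels, 37, lies outside the run of 6 to 10 of the others. Xist and Y-linked transcripts were both above 1 CPM in 3 of 6 libraries, although the labels give 1 mouse per library. The stem-cell marker Procr averaged 164 ± 12.6 CPM in knockout libraries and 36.1 ± 2.03 CPM in wild-type libraries (SD, n = 3 each), while Cd48, a surface protein of more committed progenitors, averaged 13.1 ± 7.60 CPM in knockout and 268 ± 69.9 CPM in wild-type libraries, and the log2 fold changes of 2.18 and -4.36 both passed the QL test described below (adjusted p = 0.0232 and 0.042).

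Ikzf3 fell in the knockout libraries and was the 1 member past the threshold, while Tcf7, Satb1 and Notch1 had lower values in every knockout library and Gata3 had higher values in every knockout library. Ikzf1, Tcf3, Bcl11a and Ikzf2 differed far less between the groups. The test between genotypes was edgeR's quasi-likelihood test, called the QL test below, over 12603 genes, with p adjusted by Benjamini-Hochberg and called below 0.05, and every fold change is knockout over wild type. Gene positions are from GENCODE M21 on mm10. Because the members were chosen with earlier results of these data known, the shares over all tested genes beside them are descriptive only. Of the 9 members 1 was called lower and 0 higher, against 0.127% of all tested genes called lower, 0.0159% called higher and 0.143% called in either direction. At an unadjusted p below 0.05 in the same test, 4 members were lower (Ikzf3, Satb1, Tcf7 and Notch1) and 1 was higher (Gata3), against 6.51% and 5.36% of tested genes. DESeq2 called these same 4 lower and Gata3 higher (2.58% and 1.63% of tested genes), the edgeR likelihood ratio test called 3 lower and 1 higher (2.29% and 1.14% of tested genes), and limma-voom called 0 in either direction.

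The groups did not overlap in CPM for 7 of the 9 members, against 21.4% of all tested genes. In 5 of these (Ikzf3, Tcf7, Satb1, Notch1 and Tcf3) the knockout libraries were the lower ones, against 11.3% of tested genes, and in 2 (Gata3 and Bcl11a) the higher ones, against 10.1%. Without knockout replicate 6 these counts were again 5 lower and 2 higher, against 16.7% and 16% of tested genes. The median log2 fold change of the 9 members was -0.49, against -0.01 over all tested genes. Given how the members were chosen, an excess over these shares is no independent result.

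**Figure D1:**
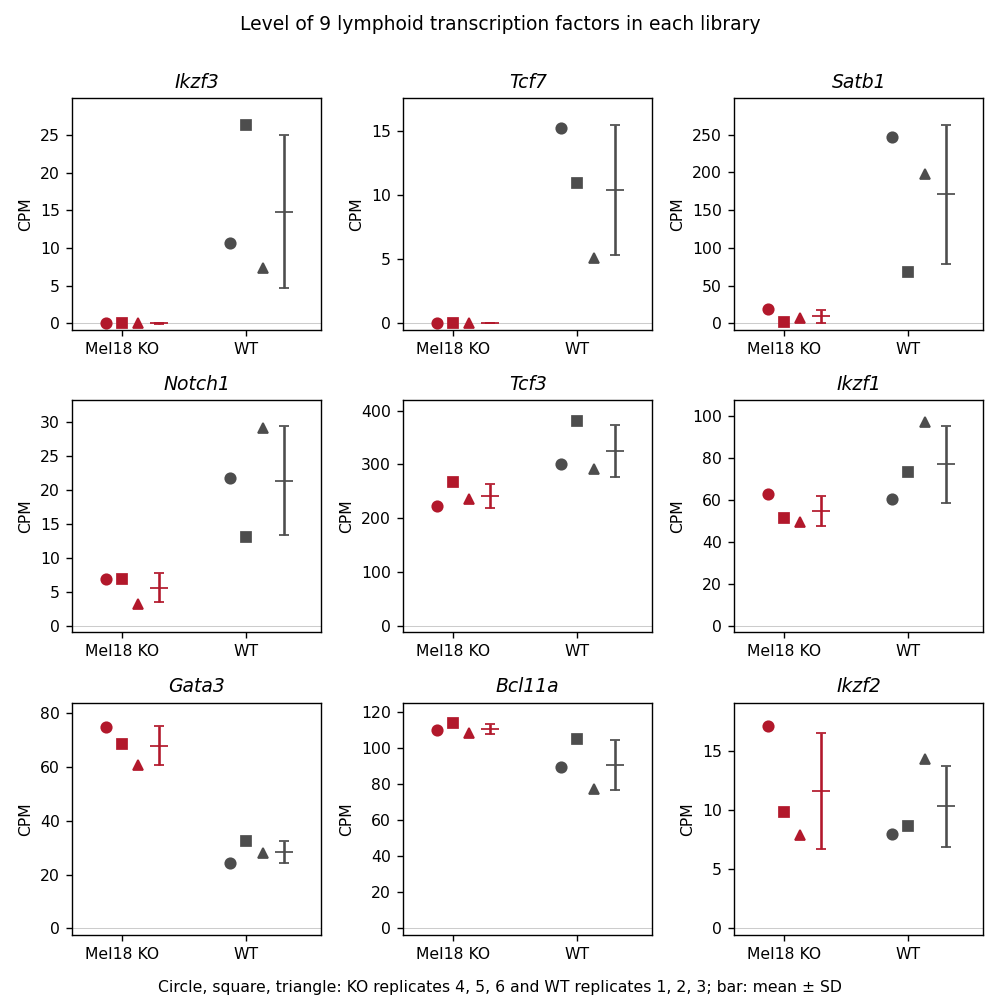
Level of each of the 9 factors in CPM (vertical axis, linear from 0) in the 3 Mel18 knockout libraries (red, left) and the 3 wild-type libraries (grey, right), with mean ± SD beside the points. Ikzf3 and Tcf7 lie at or next to 0 in all 3 knockout libraries, Satb1 and Notch1 lie below and Gata3 above every wild-type library, and the groups of Ikzf1 and Ikzf2 overlap.

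Ikzf3 (chr11:98464902-98546031, minus strand), which codes for Aiolos, had 0, 0 and 1 counts in knockout replicates 4, 5 and 6, against 310, 687 and 234 counts in wild-type replicates 1, 2 and 3. The transcript was thus all but undetected in each knockout library and clearly present in each wild-type library, although the wild-type values themselves differed from 7.38 CPM in replicate 3 to 26.4 CPM in replicate 2. The ratio of wild type to knockout, from the summed counts per effective library size, was 1536 with a 95% exact binomial interval of 275 to 60706, which covers counting error only. The QL adjusted p of Ikzf3 was 0.0496, just inside the threshold, and its fitted log2 fold change of -10.11 (SE 1.38) depends on the prior count. The call was lost without any of wild-type replicates 1, 2 and 3 (adjusted p = 0.262, 0.197 and 0.189) or knockout replicates 4 and 5 (adjusted p = 0.135 and 0.08), and kept without replicate 6 (adjusted p = 0.0388), each in the QL test of edgeR. In limma-voom the adjusted p was 0.184 and in DESeq2 1.24e-09.

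Tcf7 (chr11:52252371-52283014, minus strand), the gene of TCF1, had 0 counts in all 3 knockout libraries and 444, 285 and 162 counts in wild-type replicates 1, 2 and 3. Its wild-type levels were 15.2, 10.9 and 5.11 CPM, so every wild-type library held it well above the limit of detection. Against a floor of 3 counts over the knockout group, the level was at least 371-fold lower in knockout libraries. The adjusted p was 0.0762 in the QL test, 0.0457 in the QL test without knockout replicate 6, 1.94e-09 in DESeq2 and 0.152 in limma-voom, so whether Tcf7 passed depended on the test. It did not pass in the QL test without wild-type replicate 1, 2 or 3 (adjusted p = 0.388, 0.206 and 0.27) or knockout replicate 4 or 5 (adjusted p = 0.135 and 0.1), so it also depended on the library left out.

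Satb1 (chr17:51736187-51833290, minus strand) had 19.1, 2.48 and 7.26 CPM in knockout replicates 4, 5 and 6, against 247, 67.8 and 198 CPM in wild-type replicates 1, 2 and 3. The highest knockout library stayed below the lowest wild-type library, and in both groups the level varied several-fold among replicates. The fitted log2 fold change of -4.15 (SE 0.79) missed the threshold (QL adjusted p = 0.114). Without single libraries the log2 fold change lay between -5.14 (without knockout replicate 4) and -3.70 (without knockout replicate 5). DESeq2 gave an adjusted p of 3.43e-08 and the edgeR likelihood ratio test 3.22e-05, whereas limma-voom did not call Satb1 (adjusted p = 0.112).

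Notch1 (chr2:26457903-26516663, minus strand) had 6.88, 6.84 and 3.21 CPM in knockout replicates 4, 5 and 6, against 21.8, 13.1 and 29.1 CPM in wild-type replicates 1, 2 and 3. Every knockout library was below every wild-type library, with knockout replicate 6 the lowest. The log2 fold change was -1.92 (SE 0.55, QL adjusted p = 0.228), and -1.64 without knockout replicate 6. With an adjusted p of 0.0475, DESeq2 was the only one of the tests run that called Notch1. Exons of Notch1 overlap opposite-strand exons of 0610009E02Rik over 7.5% of their bases and of Gm13568 over 2.91% in GENCODE M21. The library kits named in the labels do not mark strand, so reads from those stretches cannot be told apart.

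Gata3 (chr2:9857078-9890034, minus strand) had 74.7, 68.4 and 60.5 CPM in knockout replicates 4, 5 and 6, against 24.4, 32.6 and 28.0 CPM in wild-type replicates 1, 2 and 3. It was the 1 member with a large difference in the upward direction, and both groups were tight, at 67.9 ± 7.11 CPM in knockout libraries and 28.3 ± 4.11 CPM in wild-type libraries (SD, n = 3 each). Gata3 had a log2 fold change of 1.26 (SE 0.28, QL adjusted p = 0.144), and it lay between 1.16 and 1.37 under every alternative run. DESeq2 called Gata3 higher (adjusted p = 0.00372), as did the edgeR likelihood ratio test (adjusted p = 0.0124), and limma-voom did not (adjusted p = 0.141). Exons of Gata3 overlap opposite-strand exons of Gm13256 over 3.9% and same-strand exons of 9230102O04Rik over 1.94% of their bases.

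Polycomb complexes in mammals are known to gather at promoters rich in CpG dinucleotides, and promoters of the members with the clearest differences and counts in both groups are therefore shown. RefSeq promoter windows (build GRCm38.p6, the assembly behind mm10) matched 7 of the 9 members, all but Ikzf2 and Ikzf3. Given are the 250 bases just before an annotated start, read 5′ to 3′ on the minus strand, which is the coding strand of all 3 genes, with each CpG in capitals. For Satb1 the outermost start and the next one are shown. The Gata3 and Notch1 starts lie inside the longer gene spans of GENCODE, and at most 25 bases of a window shown fall in an annotated exon of its own gene.
Gata3, chr2:9878601-9878850: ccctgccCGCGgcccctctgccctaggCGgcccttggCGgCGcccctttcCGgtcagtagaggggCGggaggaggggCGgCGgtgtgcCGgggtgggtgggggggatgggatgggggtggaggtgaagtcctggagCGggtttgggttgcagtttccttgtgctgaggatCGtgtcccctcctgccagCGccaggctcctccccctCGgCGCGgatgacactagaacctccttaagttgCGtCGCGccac
Notch1, chr2:26503823-26504072: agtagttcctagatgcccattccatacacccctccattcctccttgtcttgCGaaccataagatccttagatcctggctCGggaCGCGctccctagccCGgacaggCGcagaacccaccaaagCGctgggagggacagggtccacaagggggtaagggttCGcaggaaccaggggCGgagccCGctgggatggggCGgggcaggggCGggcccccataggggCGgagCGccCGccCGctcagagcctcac
Satb1, chr17:51833291-51833540: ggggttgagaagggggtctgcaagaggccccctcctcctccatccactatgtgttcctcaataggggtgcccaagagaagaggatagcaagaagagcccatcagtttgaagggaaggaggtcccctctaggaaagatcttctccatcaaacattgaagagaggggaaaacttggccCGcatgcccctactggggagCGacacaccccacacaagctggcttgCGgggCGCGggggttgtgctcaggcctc
Satb1, chr17:51832648-51832897: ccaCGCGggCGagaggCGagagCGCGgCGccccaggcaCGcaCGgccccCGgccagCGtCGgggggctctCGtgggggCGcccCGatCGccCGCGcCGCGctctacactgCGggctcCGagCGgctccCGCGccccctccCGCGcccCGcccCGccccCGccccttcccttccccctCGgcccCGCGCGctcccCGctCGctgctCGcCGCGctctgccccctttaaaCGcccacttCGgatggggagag

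The Gata3 window held 19 CpGs and the Notch1 window 16, while the windows of Satb1 held 5 at the outermost start, 41 at the next and 3, 12 and 6 at its other listed starts. The median over 32851 windows of the same length was 6 CpGs, and 80.3%, 74.6%, 44.4% and 98.9% of windows held fewer than the 4 windows printed. Tcf7 had 37 and 15 CpGs before its listed starts, Ikzf1 44 and 1, Tcf3 18 and Bcl11a 16. The Tcf7 window with 37 CpGs holds an ATG followed by an open reading frame to the window's end. The Tcf7 window with 15 CpGs holds 67 bases of the gene's own exons. The Tcf7 windows are therefore no clear measure of its promoter. The Satb1 windows with 3, 12 and 6 CpGs lie wholly in exons of Satb1. A window above the median was found for Gata3, with higher values in knockout libraries, and for Notch1 and Satb1, with lower values. Ikzf1, Tcf3 and Bcl11a, which differed far less between the groups, had such a window too. Satb1 and Ikzf1 also had windows below the median. Whether CpG content goes with the direction of a difference was not tested. Counts per gene do not show which start was used.

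Tcf3 (chr10:80409514-80433647, minus strand), the gene of E12 and E47, had 222, 266 and 236 CPM in knockout replicates 4, 5 and 6, against 301, 379.7 and 292 CPM in wild-type replicates 1, 2 and 3. It was the most abundant member per exon length in all 6 libraries, and its groups did not overlap. The difference was small, with a log2 fold change of -0.43 (SE 0.21, QL adjusted p = 0.471).

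Bcl11a (chr11:24078056-24174123, plus strand) had 109.8, 114 and 109 CPM in knockout replicates 4, 5 and 6, against 89.8, 105 and 77.2 CPM in wild-type replicates 1, 2 and 3. The knockout libraries lay just above the wild-type ones without overlap. The log2 fold change of 0.29 (SE 0.22) did not pass (QL adjusted p = 0.653). An antisense gene, 4930538E20Rik, covers 2.4% of its exon bases.

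Ikzf1 (chr11:11685003-11772926, plus strand), which codes for Ikaros, had 62.9, 51.7 and 49.6 CPM in knockout replicates 4, 5 and 6, against 60.8, 73.4 and 97.2 CPM in wild-type replicates 1, 2 and 3. The groups overlapped, since knockout replicate 4 exceeded wild-type replicate 1. The log2 fold change was -0.49 (SE 0.27, QL adjusted p = 0.526).

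Ikzf2 (chr1:69531214-69687245, minus strand), which codes for Helios, had 17.1, 9.84 and 7.89 CPM in knockout replicates 4, 5 and 6, against 8.02, 8.67 and 14.3 CPM in wild-type replicates 1, 2 and 3. Each group held 1 high library and the ranges overlapped almost completely. The log2 fold change was 0.17 (SE 0.56, QL adjusted p = 0.945), and its sign was negative, at -0.22, without knockout replicate 4.

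**Figure D2:**
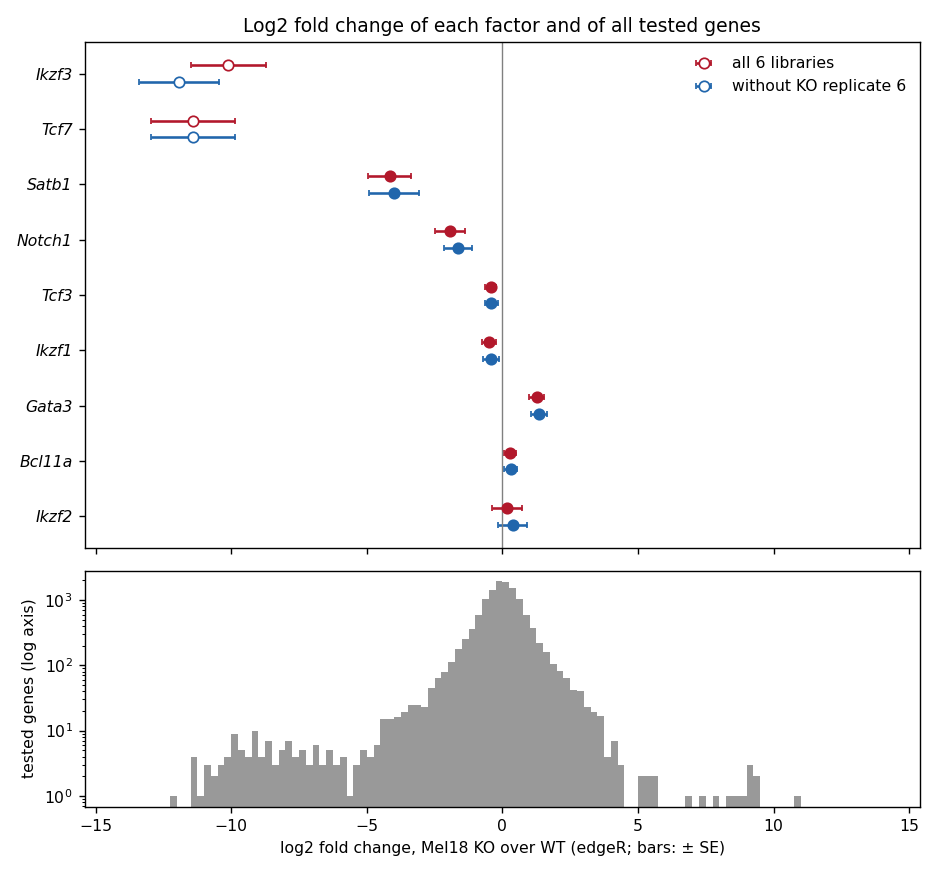
Top, log2 fold change of knockout over wild type with its SE for each factor (horizontal axis) in edgeR's fit with all 6 libraries (red) and without knockout replicate 6 (blue), with open circles where the knockout group had at most 1 count and the fitted value depends on the prior count. Bottom, the same quantity for all 12603 tested genes (vertical log axis), whose median is -0.01. Leaving out replicate 6 changed no member's direction.

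Within the Ikaros family, genes were compared by level per kilobase of exon, with the exon lengths deposited beside the counts. For Ikzf3 this length was 4098 bases, against 8754 in GENCODE M21, so shares between genes depend on the lengths used. Ikzf1 made up 62.8 ± 3.00% of the summed CPM per kilobase of Ikzf1 to Ikzf5 in knockout libraries and 60.0 ± 5.48% in wild-type libraries (SD, n = 3 each). The share of Ikzf3 was 0, 0 and 0.0529% in knockout replicates 4, 5 and 6, against 13.6, 28.6 and 6.95% in wild-type replicates 1, 2 and 3. Ikaros was thus the leading family transcript in every library. The Aiolos transcript was a sizeable part of the family sum in wild-type libraries and not in knockout libraries. Against all tested genes, the mean per-length level of Ikzf3 lay at the 28.8th percentile in wild-type libraries. Ikzf4, which codes for Eos, had 2, 106 and 205 counts in knockout replicates 4, 5 and 6, against 0, 1 and 3 counts in wild-type replicates 1, 2 and 3, and was not tested because it did not pass the filter on low counts. Its counts were high in only 2 of the 3 knockout libraries. Ikzf5 (Pegasus) averaged 15.8 ± 1.90 CPM in knockout libraries and 18.3 ± 7.51 CPM in wild-type libraries. The list of Ikzf4, Ikzf5 and partners in the NuRD and related repressor complexes had 0 of 18 tested genes called in the QL test, 1 at an unadjusted p below 0.05 (Sin3b, a scaffold of a histone deacetylase complex, 177 ± 42.1 CPM in knockout libraries and 108 ± 14.7 CPM in wild-type libraries), and 0 in DESeq2. Of these 18 genes 17 were fitted lower, with a median log2 fold change of -0.20, and Sin3b was the 1 fitted higher. Over all tested genes 6350 of 12603 were fitted lower, with a median of -0.01. At an unadjusted p below 0.05, 5.36% of all tested genes were higher and 6.51% lower.

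**Figure D3:**
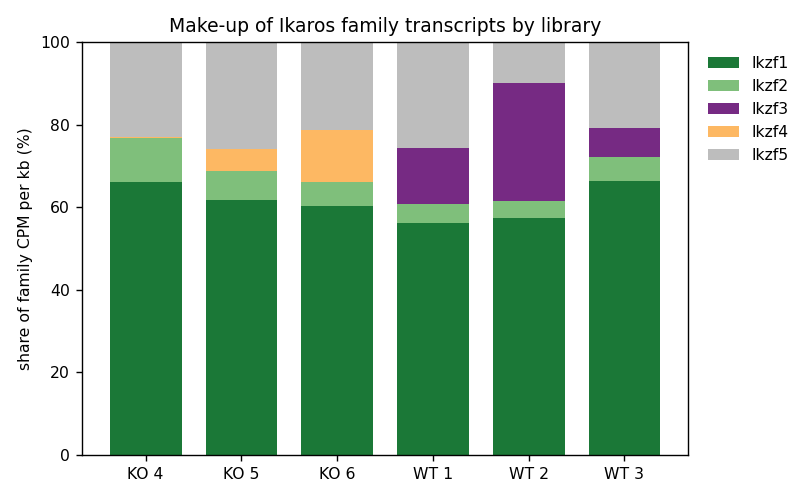
Share of each Ikaros family gene in the family's summed CPM per kilobase of exon (vertical axis, percent) in knockout replicates 4 to 6 (left bars) and wild-type replicates 1 to 3 (right bars). Ikzf3 fills 6.95 to 28.6% of the wild-type bars and is not visible in the knockout bars, where Ikzf4 appears in replicates 5 and 6.

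The order of members by level per kilobase also rests on the deposited exon lengths. These were 6788 bases for Satb1 and 7017 for Bcl11a, against 19027 and 13175 in GENCODE M21. Places after Tcf3 can therefore depend on the lengths used. Ordered by level per kilobase of exon, Tcf3 led in both groups, at 68.0 ± 6.45 CPM per kilobase in knockout libraries and 91.4 ± 13.6 in wild-type libraries (SD, n = 3 each). In knockout libraries Gata3 (21.1 ± 2.21), Bcl11a (15.8 ± 0.402) and Ikzf1 (9.66 ± 1.26) came next, in this order in each of the 3 libraries. Satb1 (1.42 ± 1.26), Ikzf2 (1.23 ± 0.517) and Notch1 (0.595 ± 0.222) followed, with SDs that overlap between neighbours, and Ikzf3 and Tcf7 came last. In wild-type libraries Satb1 was second (25.2 ± 13.6), ahead of Ikzf1 (13.6 ± 3.27), Bcl11a (12.9 ± 2.00) and Gata3 (8.80 ± 1.28). Of these neighbours, Satb1, Ikzf1 and Bcl11a do not differ beyond their spread. Tcf7 (4.66 ± 2.27), Ikzf3 (3.61 ± 2.48), Notch1 (2.25 ± 0.844) and Ikzf2 (1.10 ± 0.365) closed the wild-type order. Tcf7 and Ikzf3, and Ikzf3 and Notch1, lay within each other's spread, while Ikzf2 was the lowest member in each of the 3 wild-type libraries. Against all tested genes, the mean per-length level of Satb1 lay at the 17.1th percentile in knockout libraries and the 67.8th in wild-type libraries, and that of Gata3 at the 64.7th and the 45.4th.

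Notch signalling starts when ligands of the Delta and Jagged families bind a receptor, whose cleaved inner part then joins Rbpj and Maml cofactors at target genes such as Hes1 and Nrarp. Notch2, the other main receptor here, made up 77.9, 37.3 and 84.7% of the receptors' summed CPM per kilobase in knockout replicates 4, 5 and 6, against 26.0, 37.8 and 52.2% in wild-type replicates 1, 2 and 3, and Notch1 made up 16.4, 38.1 and 15.3% in the knockout replicates, against 67.3, 44.9 and 43.2% in the wild-type replicates. Notch1 was thus a smaller share of receptor transcript in each knockout library than in any wild-type library. Hes1, a repressor induced by Notch, had 49.1, 93.6 and 10.8 CPM in knockout replicates 4, 5 and 6, against 18.2, 27.2 and 22.1 CPM in wild-type replicates 1, 2 and 3. Nrarp, a feedback inhibitor of the pathway, averaged 18.3 ± 4.70 CPM in knockout libraries and 8.18 ± 6.71 CPM in wild-type libraries (SD, n = 3 each). Both were fitted higher, overlapped between the groups and missed the threshold (QL adjusted p = 0.526 and 0.529). Over the fixed lists, 0 of 1 tested ligands (Jag2), 0 of 3 other receptors, 0 of 18 genes of receptor processing, 0 of 10 of the nuclear complex and 0 of 6 targets were called in that test. At an unadjusted p below 0.05 there was 1 gene among these, Mfng, a glycosyltransferase that modifies Notch (259 ± 8.08 CPM in knockout libraries and 176 ± 40.5 CPM in wild-type libraries), and DESeq2 called 0. Over all tested genes 5.36% were higher and 6.51% lower at that unadjusted p.

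E proteins work as pairs with each other or with blood factors such as Tal1, and Id proteins block them. Tcf3 made up 70.9 ± 11% of the summed CPM per kilobase of the E-protein genes Tcf3, Tcf4 and Tcf12 in knockout libraries and 72.9 ± 2.47% in wild-type libraries (SD, n = 3 each). Tcf12 (61.6 ± 30.0 CPM in knockout libraries and 60.0 ± 4.73 CPM in wild-type libraries) and Tcf4 (130.0 ± 65.0 and 169.7 ± 37 CPM) had overlapping groups. Among the inhibitors, Id2 averaged 20.5 ± 7.44 CPM in knockout libraries and 30.2 ± 15.4 CPM in wild-type libraries, and Id3 5.05 ± 2.68 and 2.21 ± 0.503 CPM. Tal1 averaged 52.5 ± 9.60 CPM in knockout libraries and 31.1 ± 7.03 CPM in wild-type libraries, and Lmo2, the bridge between Tal1 and GATA factors, 1301 ± 275 and 862 ± 135 CPM. Tal1 and Lmo2 were the 2 genes of 10 tested at an unadjusted p below 0.05, both higher, against 5.36% of all tested genes. Of the 10 genes 4 were higher without overlap between the groups (Tal1, Lmo2, Id3 and the partner Ldb1), against 10.1% of all tested genes. In the QL test and in DESeq2 0 of the 10 were called.

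Among TCF/LEF factors, Tcf7 made up 0% of the summed CPM per kilobase in every knockout library and 59.9, 49.6 and 27.6% in wild-type replicates 1, 2 and 3. Lef1, its close relative in thymocytes, was low in both groups, with 57, 1 and 1 counts in knockout replicates 4, 5 and 6 and 32, 1 and 31 counts in wild-type replicates 1, 2 and 3. The list of TCF/LEF factors and partners had 0 of 12 tested genes called in the QL test, 0 at an unadjusted p below 0.05 and 0 in DESeq2. Among GATA factors, Gata2, the stem-cell member, was the most abundant per kilobase in every library, and Gata3 made up 11.6 ± 3.60% of the GATA sum in knockout libraries and 7.13 ± 2.97% in wild-type libraries (SD, n = 3 each). Gata2 averaged 474 ± 212 CPM in knockout libraries and 330.1 ± 184 CPM in wild-type libraries, and Gata1, the erythroid member, 58.6 ± 26.3 and 70.5 ± 62.2 CPM. Both had overlapping groups, unlike Gata3. Erythroid genes summed to 2422 to 3069 CPM in knockout libraries and 775 to 2522 CPM in wild-type libraries, which overlap, and megakaryocyte genes to 2791 to 4172 and 1076 to 2832 CPM, which overlap too. Bcl11b, the T-cell paralog of Bcl11a, had 0 counts in all 3 knockout libraries and 24, 109 and 45 counts in wild-type replicates 1, 2 and 3, at least 74-fold lower in knockout libraries against the floor of 3 counts over the group (QL adjusted p = 0.225).

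Of 40 other transcription factors of lymphoid development 38 were matched in the table and 34 tested, with 13 fitted higher and 21 lower (median log2 fold change -0.26). In this list 0 were called in the QL test, 3 were higher and 3 lower at an unadjusted p below 0.05, and DESeq2 called 1 higher and 2 lower. Over all tested genes 5.36% were higher and 6.51% lower at that unadjusted p, and DESeq2 called 1.63% higher and 2.58% lower. Irf8, a factor of B cells, monocytes and dendritic cells, had 4.17, 6.97 and 0.409 CPM in knockout replicates 4, 5 and 6, against 328, 154 and 200.1 CPM in wild-type replicates 1, 2 and 3. Its adjusted p was 0.07 with all libraries and 0.018 without knockout replicate 6 in the QL test. Ebf1, which commits cells to the B lineage, had 0 counts in all 3 knockout libraries and 162, 23 and 1 counts in wild-type replicates 1, 2 and 3, and was not tested because of the filter. In the other direction, Batf, an AP-1 factor of lymphocytes, averaged 85.4 ± 16.2 CPM in knockout libraries and 41.8 ± 3.18 CPM in wild-type libraries (SD, n = 3 each, adjusted p = 0.175). Foxo1, which supports both stem-cell quiescence and B-cell development, averaged 48.8 ± 7.48 CPM in knockout libraries and 21.8 ± 15.5 CPM in wild-type libraries (QL adjusted p = 0.416). Its groups did not overlap but nearly touched, at 40.2 CPM in knockout replicate 6 and 39.6 CPM in wild-type replicate 2. Over all tested genes 10.1% were higher without overlap. Broad blood factors had overlapping groups, with Runx1 at 100.1 ± 16.0 CPM in knockout libraries and 91.6 ± 19.4 CPM in wild-type libraries, Myb at 324 ± 32.6 and 383 ± 99.1 CPM, Spi1 at 191 ± 66.6 and 227 ± 48.2 CPM and Mef2c at 136 ± 47.9 and 177 ± 29.0 CPM. Runx3 averaged 56.4 ± 9.98 CPM in knockout libraries and 85.9 ± 21.7 CPM in wild-type libraries, also overlapping.

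Transcripts of lymphoid-primed cells also differed between the groups, and in bulk libraries fewer cells of a type and less RNA per cell cannot be told apart. Of the list of lymphoid priming genes, which includes Notch1, 13 of 15 tested were fitted lower (median log2 fold change -1.92). In this list 0 were called in the QL test, where 6 were lower at an unadjusted p below 0.05, and DESeq2 called 5 lower. Over all tested genes these shares were 6.51% and 2.58%. The summed level of the list was 1177 to 2411 CPM in knockout libraries and 2588 to 5415 CPM in wild-type libraries. Dntt, the polymerase that diversifies antigen receptors, had 10.6, 1.02 and 9.59 CPM in knockout replicates 4, 5 and 6, against 1198, 383 and 386 CPM in wild-type replicates 1, 2 and 3 (adjusted p = 0.0592 in that test). Il7r, the interleukin-7 receptor, had 0, 0 and 26 counts in knockout replicates 4, 5 and 6, against 538, 11 and 161 counts in wild-type replicates 1, 2 and 3, so the groups overlapped. Flt3, a receptor of lymphoid-primed progenitors, had 134, 29.6 and 73.8 CPM in the knockout replicates, against 424, 123 and 378 CPM in the wild-type replicates, also overlapping.

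The multipotent progenitor and myeloid-primed list summed to 697 to 2232 CPM in knockout libraries and 6785 to 15166 CPM in wild-type libraries, with 21 of 21 genes fitted lower and 4 called. These were Cd48, the monocyte receptor genes Ccr2 and Fcgr3, and F13a1, a clotting factor gene of monocytes and platelets, which averaged 0.185 ± 0.160 CPM in knockout libraries and 78.5 ± 21.5 CPM in wild-type libraries (SD, n = 3 each). The long-term stem cell list summed to 2919 to 4961 CPM in knockout libraries and 1364 to 2781 CPM in wild-type libraries, with 21 of 22 fitted higher and Procr called. Cell cycle genes summed to 3534 to 4531 CPM in knockout libraries and 7959.5 to 9085 CPM in wild-type libraries, with 29 of 29 fitted lower. Of these Ect2, a gene of cell division, was called (23.6 ± 5.17 CPM in knockout libraries and 99.2 ± 11.4 CPM in wild-type libraries). Over all 12603 tested genes the QL test called 0.127% lower and 0.0159% higher, and 6350 were fitted lower and 6253 higher. At an unadjusted p below 0.05 in that test, 14 multipotent and myeloid and 26 cell cycle genes were lower and 7 stem cell genes higher. DESeq2 called 12 and 23 lower and 5 higher. These shares over all tested genes were 6.51% lower and 5.36% higher, and 2.58% lower and 1.63% higher in DESeq2. Knockout libraries thus had lower summed levels of the lymphoid priming, multipotent and myeloid, and cell cycle lists, side by side with lower Ikzf3, Tcf7, Satb1 and Notch1, whereas most erythroid genes (8 of 12) and megakaryocyte genes (10 of 12) were fitted higher, and the part of this in the members' differences was not tested.

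The lists of T, B and NK cells had overlapping sums, although most of their tested genes were fitted lower. The T lineage list, 18 of 19 genes of which were matched, summed to 101 to 113 CPM in knockout libraries and 102 to 201 CPM in wild-type libraries. In knockout libraries 6 of them were at 0, namely Cd4, Cd8a, Zap70, Cd6, Bcl11b and Themis, and Themis was at 0 in wild-type libraries too. Of 11 tested T lineage genes 9 were fitted lower (median log2 fold change -2.01), 4 were lower without overlap between the groups and 2 higher without overlap. Over all tested genes 11.3% were lower and 10.1% higher without overlap. The B lineage list, 17 of 20 matched, summed to 907 to 1406 CPM in knockout libraries and 1292 to 2869 CPM in wild-type libraries, with Blk and Ebf1 at 0 in knockout libraries. Of 14 tested B lineage genes 12 were fitted lower (median -1.10), 6 of them without overlap. The list of NK and innate lymphoid cells, 18 of 19 matched, summed to 883 to 1412 CPM in knockout libraries and 998 to 1720.5 CPM in wild-type libraries, with Klrk1, Gzma and Icos at 0 in knockout libraries and Eomes and Tbx21 at 0 in wild-type libraries. Of 12 tested genes of that list 8 were fitted lower (median -0.46), 4 of them without overlap. It holds Kit and Itga2b, which are also on the stem cell and megakaryocyte lists, and without these 2 genes its sum did not overlap, at 222 to 333 CPM in knockout libraries and 349 to 612 CPM in wild-type libraries, with 7 of 10 fitted lower (median -0.87). Plasmacytoid dendritic cell genes did not overlap, and summed to 318 to 388 CPM in knockout libraries and 648 to 849 CPM in wild-type libraries. In these 4 lists the QL test called 0 of 11, 14, 12 and 10 tested genes, with 2, 5, 3 and 4 lower at an unadjusted p below 0.05, and DESeq2 called 2, 3, 3 and 3 lower. Over all tested genes 6.51% were lower at that unadjusted p, and DESeq2 called 2.58% lower. Their part in the members' differences was not tested.

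**Figure D4:**
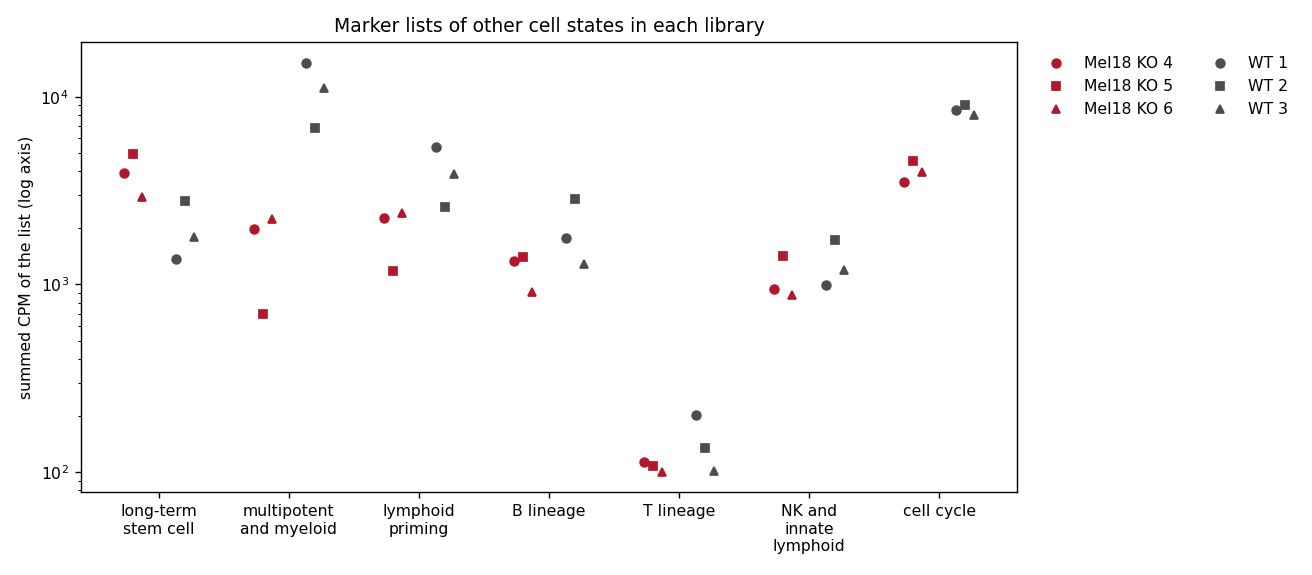
Summed CPM of 7 fixed marker lists (vertical log axis) in the knockout libraries (red, left of each pair) and wild-type libraries (grey, right). The multipotent and myeloid list (697 to 2232 CPM in knockout, 6785 to 15166 CPM in wild type) and the cell cycle list separate the groups, the stem cell list does so in the other direction, and the B, T and NK lists overlap, the NK list being drawn with Kit and Itga2b.

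The genes whose pattern over the 6 libraries was most like that of a member were found by the root mean square difference of mean-centred log2 CPM. For Ikzf3, which spanned 8.75 log2 units, these were Il13ra1 (0.51), Cldn15 (0.56) and the B-cell surface gene Ms4a1 (0.56). For Tcf7, which spanned 7.96 units, they were the chemokine receptor Cx3cr1 (0.32), the mast cell and basophil gene Ms4a2 (0.36) and the NK receptor Klrk1 (0.41), and for Satb1 (6.60 units) the granulocyte precursor gene Ms4a3 (0.58), Cd48 (0.65) and Disc1 (0.67). Patterns near 0 counts in all knockout libraries are alike on this scale whatever the gene. For Notch1 the nearest were Slc35a3 (0.28), Hvcn1 (0.30) and Fam193b (0.31), for Gata3 E030011O05Rik (0.12), Zfp111 (0.13) and Snap47 (0.15), and for Ikzf1 Eif2ak1, Slc39a7 and Runx3 (0.09 each). Ikzf2, Bcl11a and Tcf3 spanned 1.11, 0.56 and 0.78 units, and their 3 nearest genes lay within 0.13, 0.06 and 0.08.

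The authors' deposited table gives its own comparison, named Cre+ against Cre-, and does not name the libraries behind each side. In the authors' deposited table the log2 fold change of Notch1 was 0.58, that of Ikzf2 -0.10 and that of Bcl11a -0.17, each with the opposite sign to the deposited counts of these 6 libraries. For Ikzf3, Satb1 and Tcf7 the authors' deposited table had -8.13, -1.83 and -3.18, and for Gata3, Ikzf1 and Tcf3 it had 0.10, -0.37 and -0.45. Its p-values for the members ran down to 0.0127 (Ikzf3) and its adjusted p was 1 for all 9. Over all tested genes, 34.9% had the opposite sign in the authors' deposited table, and of 109 genes with 0 counts in all 6 libraries, 74 carried a log2 fold change beyond 1 in size there. The values above rest on the counts alone.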

How the data were processed

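RNA-seq libraries of 6 mice were analysed, 3 labelled Mel18 knockout and 3 wild type. Per the labels' protocols, a SMART-Seq v4 kit for low input gave the cDNA and Nextera XT the libraries, neither of which marks strand. The submitters' processing notes name STAR 2.5, Trimmomatic 0.40, MultiQC 0.11.5, FastQC, edgeR 3.28.1 and the build mm10. The authors deposited raw counts per gene, which the table's name credits to featureCounts, and these counts were used for every test. For strand, multimapping and gene filter, the counting settings are not given in the sources used. The authors also deposited log2 FPKM values, which were not used, and their own comparison with log2 fold changes, other linear fold changes and p-values, quoted once.

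Genes were kept by filterByExpr (minimum 10 counts, 12603 of 13935) and scaled by TMM (0.949 to 1.042) in R 4.3.3 with edgeR 4.0.16, limma 3.58.1 and DESeq2 1.42.0. Genotype was tested with edgeR's robust quasi-likelihood test, two-sided, Benjamini-Hochberg over all tested genes, threshold 0.05. An SE is the log2 fold change divided by the square root of F. The floor is 3 counts. Intervals cover counting error only. P-values set the difference between groups against the spread between these libraries, which is estimated with information shared across genes. The members, lists and alternatives were chosen with earlier results of these data known. Genes named are the members, a fixed set of related factors and receptors, called or lowest-p genes of each list, and the 3 most alike per member. Markers at 0 are named to complete a count. Gene positions came from GENCODE M21, which is on the same build.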

Additional observations from a re-analysis of the deposited data

How the results depend on the processing

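Of the members' 9 log2 fold changes under 17 alternatives, the only sign to change was that of Ikzf2, which lay between -0.22 (without knockout replicate 4) and 0.47 (without wild-type replicate 3). The number of calls changed with the test, and the cause was not tested. DESeq2 called 205 genes higher and 325 lower (1 and 4 members), the edgeR likelihood ratio test 144 and 288 (1 and 3 members), limma-voom 0 and 0 (0 members, 1775 genes at an unadjusted p below 0.05), limma-voom with quality weights 2 and 2 (0 members), and glmTreat of edgeR, which tests beyond a fold of 1.5, called 1 and 6 (0 members), against 2 and 16 (1 member lower) in edgeR's quasi-likelihood test. Without a count filter 25 genes were lower, and with upper-quartile factors 0 members were called (Ikzf3 adjusted p = 0.059). Leaving out each replicate in turn gave 0 to 2 genes called higher, 0 to 47 called lower and 0 to 2 members called lower. Both members (Ikzf3 and Tcf7) and the 47 genes came without knockout replicate 6. The count of members whose groups do not overlap was examined without that replicate after seeing the data, and did not change. The NK list without Kit and Itga2b was likewise chosen after seeing the data. Under the other scalings the median log2 fold change of all genes lay between -0.017 and 0.036. No paired analysis was possible because the groups share no replicate number. Depth limits the knockout levels of Ikzf3 and Tcf7, which lie at or below 3 counts.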
